A study of Arabidopsis thaliana with 3 samples.

Results

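The cytosolic 60S ribosomal protein genes of Arabidopsis thaliana encode the proteins of the large subunit of the cytosolic ribosome. They were chosen as the loci of chromosomes 1 to 5 whose annotated gene name holds 60S and ribosomal protein before its first semicolon and does not hold "similar to". The rule found 132 of the 29030 loci on the arrays, measured by 214 spots, and used no measured value. The loci fell into 48 protein families, each named for a subunit protein, of which 44 had several members. Besides genes for subunit proteins, it caught 5 loci annotated as pseudogenes (RPL21B, RPL21F, RPL5C, RPL3C and RPL4C) and 5 loci named as ribosomal protein-related with no subunit number. It left out at least 14 other large subunit genes whose names are written differently, among them STV1 and RPL24A, so the 132 are not the whole set.

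The study compared the prefoldin mutant pfd4 with its wild type Col-0 in the cold. Prefoldin is a cytosolic chaperone complex that passes unfinished actin and tubulin chains to the chaperonin. Both genotypes were 2 weeks old, had grown at 22 °C under a cycle of 16 h light to 8 h dark, and had spent 24 h at 4 °C before total RNA was taken from the plants. RNA of the mutant and RNA of the wild type were hybridised together on each of 3 two-colour arrays, which form 1 group of 3 biological replicates; the mutant carried Cy3 on arrays 1 and 2 and Hyper5 on array 3. The labels do not describe the pfd4 allele, the tissue beyond plants, or whether plants were pooled, and the files analysed hold no comparison at 22 °C.

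Values below are given as the log2 ratio of pfd4 over Col-0, averaged over the spots of a locus, where 1 is a 2-fold difference. The direction is called likely, because the labels do not give the numerator. It was read from the transcript of the mutated gene PFD4, which had ratios of -3.08, -2.71 and -2.17 on arrays 1, 2 and 3. Each array was centred near 0, with medians over all loci of -0.01, 0.01 and 0.005. No spot intensities were used here, so a low and a high transcript cannot be told apart and the number of arrays limits the precision. In RNA of plants, fewer cells of a type and less RNA per cell cannot be told apart.

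Ribosomal proteins are needed in near equal amounts, and in Arabidopsis each is encoded by several paralogous genes that are known to be expressed together in growing tissue. The large subunit carries the centre that joins amino acids, the tunnel through which the chain leaves, and a flexible stalk that recruits the GTP-splitting factors of translation. Mutants in single 60S genes are known for pointed leaves and for changes in leaf polarity.

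The 60S genes lay mostly above 0 in pfd4, by little and unevenly over the arrays. Their median log2 ratios on arrays 1, 2 and 3 were 0.06, 0.39 and 0.20. The median of the means over the arrays was 0.23, or 1.17-fold, against 0.0067 over all loci. The mean was above 0 in 114 of 132 members (86.4%, against 51.1% of all loci). On single arrays, 79 members (59.8%) were above 0 on array 1, 106 (80.3%) on array 2 and 90 (68.2%) on array 3, against 48%, 51% and 50.2% of all loci. The mean lay below 0 in 18 members.

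**Figure D1:**
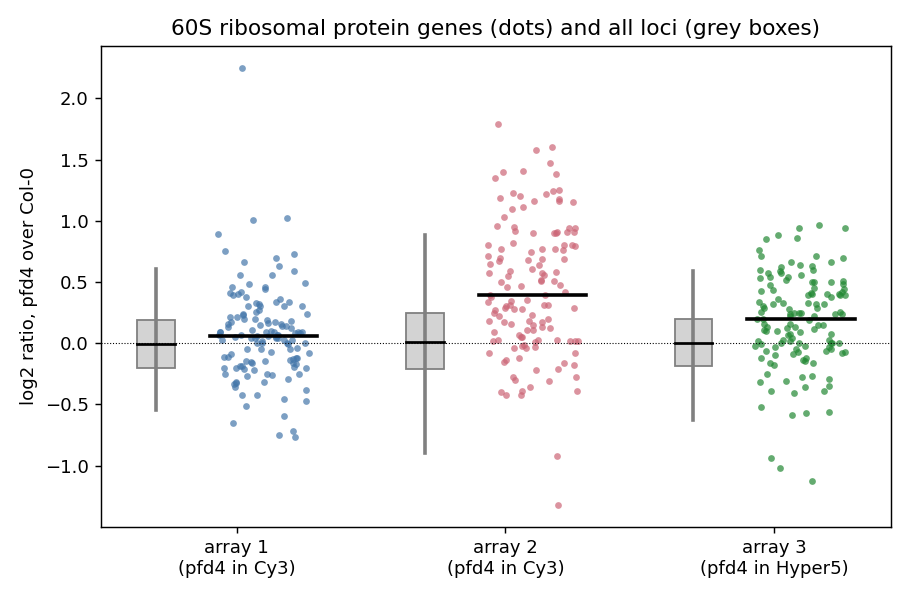
Each dot is 1 of the 132 60S ribosomal protein genes, with its log2 ratio of pfd4 over Col-0 on the vertical axis and the array on the horizontal axis; thick bars are the members' medians (0.06, 0.39 and 0.20). Grey boxes give the quartiles, the line in each its median and the whiskers the range from the 5th to the 95th percentile over all loci, centred near 0 on each array.

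The same sign on every array was less common than a mean above 0. Of the 132 members, 42 were above 0 on all 3 arrays (31.8%, against 12.3% of all loci), 3 were below 0 on all 3 (2.27%, against 12.1%) and 87 were mixed. The 42 had means from 0.12 to 0.64 with a median of 0.36, and 16 of them reached 0.1 on every array, a count not taken over all loci. The count above 0 on every array used was 74 without array 1, 45 without array 2 and 71 without array 3. The count below 0 was 9, 6 and 17, as fewer arrays have to share the sign. The shares over all loci with 1 array left out were not taken, so these counts are not read as a result about the members. The SD over the 3 arrays exceeded the size of the mean in 97 members, which was not counted over all loci either. The median SD was 0.36 in the members against 0.26 over all loci.

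No member passed limma's moderated test of the mean ratio against 0 after Benjamini-Hochberg adjustment over all loci, and neither did any other locus (0 of 29030, or 0%; lowest adjusted p among the members 0.887). Even the mutated gene PFD4 did not pass (unadjusted p = 8.26e-05, adjusted p = 0.887 in limma). The lack of passing members thus does not show a lack of difference. At an unadjusted p under 0.05 in limma, 7 members were higher in pfd4 (5.3%, against 2.14% of all loci) and 1 was lower (against 2.58% of all loci). Without array 3 there were 24 higher and 3 lower, and without array 2 there were 0 higher, counts that were not taken over all loci. Directions given below for single genes are therefore those of the measured values, not of a passed test.

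Array 2 had the highest median and held most of the ratios of at least 2-fold. It also had the widest spread over all loci, with an SD of 0.55 against 0.36 on array 1 and 0.37 on array 3. At least 2-fold higher on array 2 were 21 members (15.9%, against 3.67% of all loci). On arrays 1 and 3 there were 3 and 0 such members, against 353 and 179 of the 29030 loci. At least 2-fold lower on array 2 were 1 member and 1197 of all loci. Array 2 gave the highest of the 3 values in 69 members (52.3%, against 34.5% of all loci). RPL36aB, known as API2 from a mutant with pointed leaves, shows the pattern with 0.03, 1.58 and 0.03 on arrays 1, 2 and 3. Its mean of 0.55 ± 0.89 (SD, n = 3) came almost wholly from array 2.

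The members were then read by role, with pseudogenes counted apart. Among the genes of the ribosomal stalk, 9 of 17 were above 0 on all 3 arrays (52.9%, against 12.3% of all loci). Below 0 on all 3 was 1 (5.88%, against 12.1% of all loci), and 7 were mixed. Their medians on the 3 arrays were 0.05, 0.46 and 0.25, and the median of their means was 0.24. P0 anchors the stalk on the ribosomal RNA. RPP0B had 0.065, 0.575 and 0.225 and RPP0C had 0.05, 0.46 and 0.33, all above 0. The RPP0B values are means of spots that differed in sign on array 1, with -0.34, 0.86, -0.34 and 0.08. RPP0A, the other P0 gene, had -0.72, 0.11 and 0.88, so that arrays 1 and 3 lay far apart on opposite sides of 0. 

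P1 and P2 are the acidic proteins that hang from P0 in pairs and bind translation factors. RPP1B had 0.26, 0.675 and 0.34 on the 3 arrays, with a mean of 0.42 ± 0.22 (SD, n = 3; unadjusted p = 0.0344 and adjusted p = 0.887 in limma). RPP1A had 0.44, 0.79 and 0.075, and RPP1C had 0.16, 0.30 and 0.25 over its 5 spots. AT5G24510, a further P1 gene, had 0.41 and 0.27 and was listed at 0 on array 3. P1 thus had 3 of 4 members above 0 on every array (against 12.3% of all loci), with means between 0.23 and 0.435.

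P2 was the family whose members differed most. RPP2C (AT3G28500) had -0.75, -1.32 and -0.94 on arrays 1, 2 and 3. It was low on every array, at a mean of -1.003 ± 0.29 (SD, n = 3), a 2.00-fold lower value in pfd4 with the smallest p among the members (unadjusted p = 0.00191, adjusted p = 0.887 in limma). RPP2B had 0.045, 0.40 and 0.25, and RPP2A, its neighbour in the genome, -0.12, 0.47 and 0.39. RPP2D had -0.13, 0.02 and 0.44, and RPP2E had -0.07, -0.04 and 0.32, so these 4 paralogues had means from 0.07 to 0.25 while RPP2C lay apart. A gap of 1.25 between the highest and the lowest mean made P2 the 1 family of 44 with a gap over 1. RPP2C was measured by a single spot, so no second spot of the arrays checks it.

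P3 is a stalk protein found in plants. RPP3A had 0.025, 0.20 and 0.135, and RPP3B had -0.27, 0.91 and 0.94, with a mean of 0.53 ± 0.69 (SD, n = 3) that did not exceed its spread. L12 sits at the base of the stalk beside P0. RPL12A had 0.46, 0.94 and 0.015 and RPL12C had 0.375, 0.915 and 0.04, both above 0 on every array but hardly so on array 3. RPL12B had 0.215, 0.575 and -0.145, with the same order of the arrays.

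**Figure D2:**
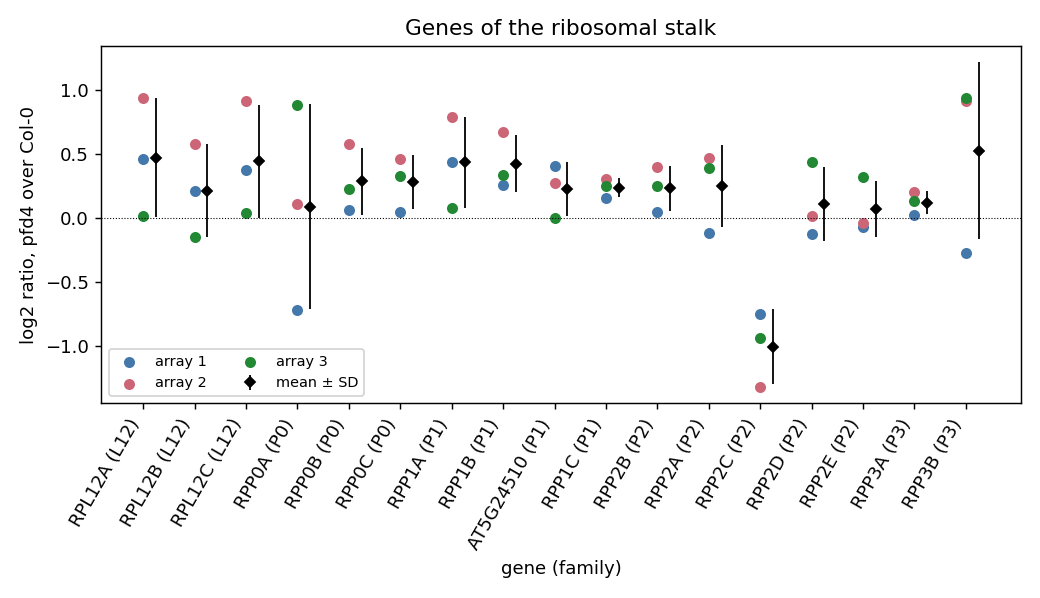
Log2 ratios of pfd4 over Col-0 (vertical axis) for the 17 stalk genes (horizontal axis, with the family in brackets); coloured dots are the 3 arrays and black diamonds the mean with its SD over the arrays. RPP2C lies below 0 on each array, from -0.75 to -1.32, and RPP0A spans from -0.72 to 0.88.

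L5 and L11 bind the 5S ribosomal RNA and enter the subunit with it. RPL11D had 0.27, 0.80 and 0.36 on the 3 arrays, above 0 on each, with a mean of 0.48 ± 0.28 (SD, n = 3; unadjusted p = 0.0314, adjusted p = 0.887 in limma). RPL11B, its paralogue, had -0.33, 0.11 and 0.64. RPL5B, known as OLI7 from a mutant with few leaf cells, had 0.63, 0.69 and -0.35, high on the arrays with the mutant in Cy3 and low on the array with exchanged dyes. The other locus named as L5 outside the pseudogenes, AT2G07725, had a mean of -0.12 ± 0.40. It was placed here by its annotated name alone, and whether its product belongs to the cytosolic ribosome was not checked.

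Proteins of the exit tunnel line it or ring its opening. Of 22 members, 5 were above 0 on all 3 arrays (22.7%, against 12.3% of all loci). Below 0 on all 3 were 2 (9.09%), a share no higher than the 12.1% of all loci. The median of the means of the 22 was 0.22. The 2 below were RPL39B, of the small protein in the tunnel wall, with -0.17, -0.16 and -0.10, and RPL35C, of a protein at the opening, with -0.11, -0.155 and -0.06. Both were low by little on each array. RPL35D, a paralogue of RPL35C, had 0.75, 0.52 and -0.41, and RPL39A had 0.15, 0.90 and -0.12. The L17 genes ran the other way, with -0.51, 0.28 and 0.85 in RPL17A and -0.595, -0.025 and 0.965 in RPL17B, alike between the paralogues and highest on array 3.

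Members that touch the transfer RNAs or form the mobile L1 stalk, 10 in number, had medians of -0.10, 0.26 and 0.28 on the 3 arrays. RPL10A, known as SAC52 from a suppressor of a stem growth mutant, had 0.095, 0.745 and 0.235 and a mean of 0.36 ± 0.34 (SD, n = 3). With RPL36aB it was 1 of the 2 in this group that were above 0 on every array (20%, against 12.3% of all loci). RPL10aB, known as PGY1 from a mutant in leaf polarity, encodes the protein of the L1 stalk and had -0.205, 0.065 and 0.245, which averaged 0.035.

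At the face toward the small subunit, 2 of 9 members were above 0 on all 3 arrays (22.2%, against 12.3% of all loci). None was below on all (against 12.1% of all loci). RPL30A had 2.25, 1.11 and -1.13, the highest value of any member on array 1 and the lowest on array 3, while its paralogue RPL30C had 0.08, 0.42 and 0.15. RPL41E, of a very short peptide that bridges the subunits, had 0.40, 1.79 and -1.02. The L23 genes differed from each other, with 0.17, 1.18 and 0.11 in RPL23A (AT1G04480) and -0.42, 0.15 and 0.86 in RPL23B. RPL40A, which is made as a fusion with ubiquitin, had -0.32, 0.61 and 0.60.

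The remaining 59 genes were for proteins of the core and surface, with a median of their means of 0.33. They held 19 above 0 on all 3 arrays (32.2%, against 12.3% of all loci) and none below on all (against 12.1%). RPL34A had 0.30, 0.90 and 0.39, above 0 on each array, with a mean of 0.53 ± 0.32 (SD, n = 3; unadjusted p = 0.028, adjusted p = 0.887 in limma). RPL27aC had 0.19, 0.55 and 0.54, RPL13aB had 0.09, 0.82 and 0.66, and AT1G57860, an L21 gene, had 0.235, 0.90 and 0.40. RPL27aC, RPL13aB and AT1G57860 also had unadjusted p-values under 0.05 in limma (0.0303, 0.0401 and 0.0356, in the order RPL27aC, RPL13aB, AT1G57860). The spots of RPL27aC did not share a sign on array 1, with -0.25, 0.91 and -0.08. Taking the median of its spots in place of their mean gave 0.27. RPL28A had the highest mean among members above 0 on every array, with 0.09, 1.41 and 0.43 and a mean of 0.64 ± 0.69. Its SD was as large as its mean, since array 2 stood apart.

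RPL13aA had 0.24, 1.20 and 0.28, RPL90B had 0.20, 1.19 and 0.29 and RPL7B had 0.175, 1.165 and 0.125. In each of these 3 genes arrays 1 and 3 lay close together and array 2 above both. RPL90A/C, known as PGY2 from a leaf polarity mutant, encodes L9 like RPL90B but had -0.32, -0.08 and 0.595. AT5G39800, one of the loci without a subunit number, had 0.30, 0.39 and 0.39 (0.36 ± 0.05, SD, n = 3; unadjusted p = 0.0309, adjusted p = 0.887 in limma), a small and even difference. The other 4 such loci were mixed, and the 5 together had a median of means of -0.05. Whether the products of these 5 loci belong to the cytosolic ribosome was not checked. Of the 5 pseudogenes, 3 were above 0 on all arrays (against 12.3% of all loci), and the median of means of the 5 was 0.17.

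The members were also read by family, here with the pseudogenes included. All members had means above 0 in 34 of 48 families, among them 30 of the 44 with several members. Since 86.4% of all members had a mean above 0, this is not read as a likeness between paralogues, which was not tested. The median gap between the highest and lowest mean in those 44 was 0.34, and it was over 0.5 in 11. A member above 0 on all 3 arrays was found in 28 families, and 20 had none. L36, a small protein of the surface, had means from 0.40 to 0.58 in its 3 genes, yet none of the 3 was above 0 on array 3. L19 and L14 each had both genes above 0 on all arrays, with means from 0.23 to 0.30 and from 0.315 to 0.40. In L37a, RPL37aC had 0.89, 1.61 and -0.27 and RPL37aB -0.21, -0.36 and 0.20, on opposite sides of 0 on every array. Since paralogues resemble each other in sequence, cross-hybridisation between them was possible and was not tested.

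**Figure D3:**
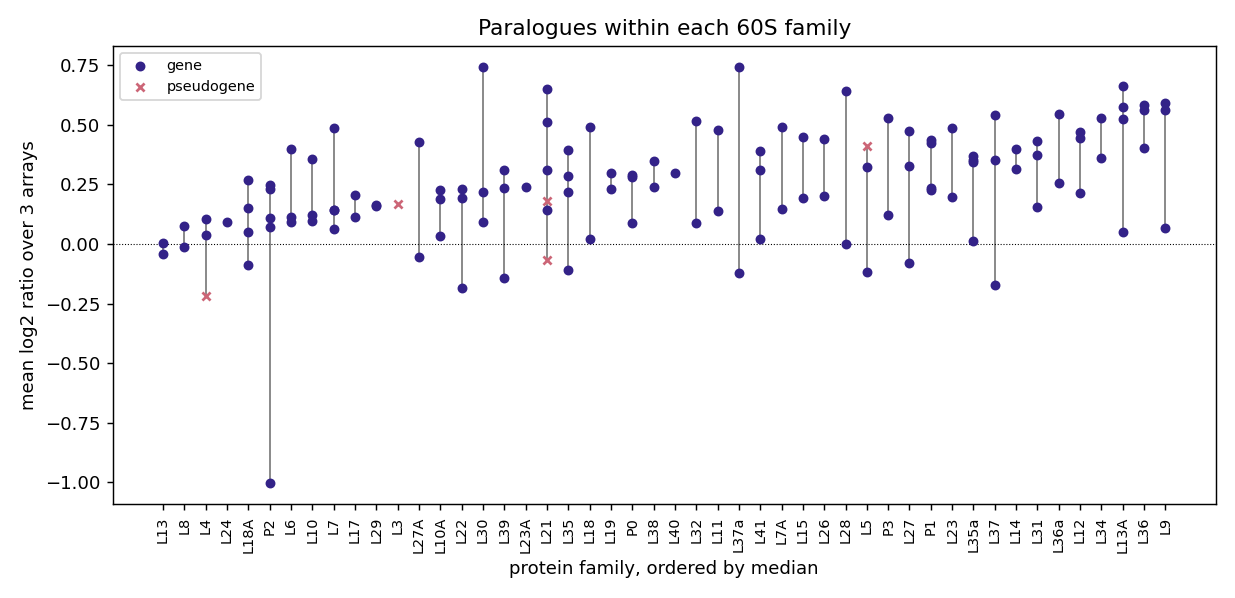
Mean log2 ratio over the 3 arrays (vertical axis) of each member, by protein family (horizontal axis, ordered by the family median); circles are genes, crosses pseudogenes, and grey lines join the members of a family. Most families lie between 0 and 0.75, and the P2 family reaches down to -1.003 through RPP2C.

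Several genes lie side by side in the genome. RPL6C and RPL6B (AT1G74050 and AT1G74060) had 0.23, 0.76 and 0.20 against -0.65, 0.28 and 0.71, highest on different arrays. RPL28A and RPL31A (AT2G19730 and AT2G19740) belong to different families and had means of 0.64 and 0.43, both highest on array 2.

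The members were also measured spot by spot. Of 214 spots, 59 (27.6%) were above 0 on all 3 arrays and 2 were below on all 3. Shares over all spots were not counted. Among 55 members with several spots, 43 had a mean above 0 at every spot. The median of means was 0.23 in the 77 members with 1 spot and 0.24 in those with several, and each held 21 members above 0 on all arrays. Spots of a member differed with an SD of 0.32, 0.47 and 0.30 on arrays 1, 2 and 3, and in 11 members by more than 1 on some array. The 11 were RPL27aC, RPL35aD, RPL11D, RPL4A, RPL7C, RPL26A, RPL5B, RPL12B, RPP0B, RPP1C and RPP2B. A sign given for a locus is that of the mean over its spots, and single spots could differ from it.

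The arrays ordered the members differently. Across the 132 members, arrays 1 and 2 correlated at r = 0.49, arrays 1 and 3 at r = -0.65 and arrays 2 and 3 at r = -0.20; over all 29030 loci the values were 0.40, -0.27 and -0.04. These are correlations across genes, which are not independent replicates and share the 3 hybridisations. Arrays 1 and 3 gave opposite signs in 75 members (56.8%, against 55.9% of all loci). RPL36A at 1.02, 1.23 and -0.57 and RPL30A were among those highest on array 1 against array 3, and RPP0A and RPL17B were among those highest on array 3 against array 1. Array 3 is also the 1 array with exchanged dyes, so dye and replicate cannot be told apart there. RPL30A, RPL36A, RPL41E, the L17, L23, L36 and L37a genes and the other paralogues set beside a named gene were singled out after their values were seen.

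**Figure D4:**
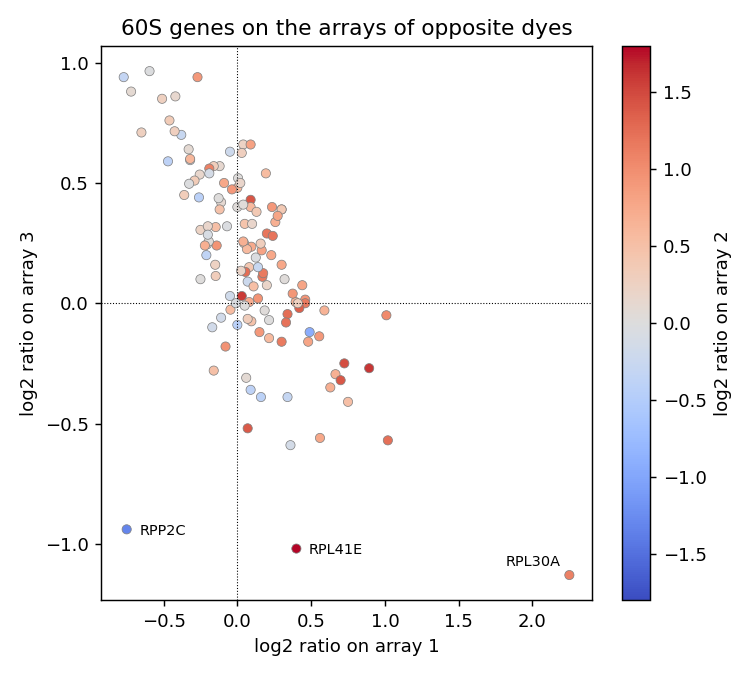
Each dot is 1 of the 132 genes, placed by its log2 ratio on array 1 (horizontal axis) and on array 3 (vertical axis) and coloured by its ratio on array 2. The cloud falls from upper left to lower right (r = -0.65), and RPP2C lies apart at the lower left, below 0 on both.

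Other gene groups measured on the same arrays were set beside the 60S genes; differences between lists were not tested. The 14 large subunit genes that the rule left out had medians of 0.003, 0.78 and 0.31 by array. Of these 14, 6 were above 0 on all arrays (42.9%, against 12.3% of all loci) and none below on all (against 12.1%). STV1, which encodes L24 and is known for reinitiation of translation after short upstream frames, had 0.35, 0.86 and 0.32. Genes of the cytosolic 40S subunit, 79 by the like rule, had medians of -0.11, 0.285 and 0.37, with a median of means of 0.21. Of the 79, 16 were above 0 on all arrays (20.3%, against 12.3% of all loci). The 23 nuclear genes for organelle ribosomal proteins had medians of 0.05, 0.26 and 0.25 and a median of means of 0.23.

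Assembly factors of the 60S subunit lay lower. For the 21 genes used, the medians by array were 0, 0 and -0.33 and the median of means was -0.02. Above 0 on all arrays was 1 (4.76%, against 12.3% of all loci). Below 0 on all arrays were 3 (14.3%), near the 12.1% of all loci. NUC2, a nucleolin, had -0.30, -0.51 and -0.61, LSG1-1, a GTPase of late 60S maturation, had -0.14, -0.44 and -0.64, and APUM23, a nucleolar RNA-binding protein, had -0.34, -0.095 and -0.33. NOP56, of the particles that methylate ribosomal RNA, had 0.50, 0.87 and 0.02. In limma 2 of the 21 assembly factors were lower at an unadjusted p under 0.05 (against 2.58% of all loci). These were NUC2 (unadjusted p = 0.0171, adjusted p = 0.887 in limma) and LSG1-1 (unadjusted p = 0.0454, adjusted p = 0.887 in limma). Of 6 regulators of ribosome genes, the transcription factors TCP20 and ANAC082 were below 0 on all arrays (33.3%, against 12.1% of all loci). None was above on all (against 12.3%).

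Because ribosomal protein genes are known to be high in growing tissue, markers of dividing tissue and of roots were read beside them. The 11 markers of dividing tissue had medians of -0.15, -0.19 and 0.30 on arrays 1, 2 and 3, with means from -0.27 to 0.17, and 2 (CYCB1;1 and CDKB2;2) were above 0 on all arrays. The share above 0 on all arrays was 18.2%, against 12.3% of all loci. All 11 were above 0 on array 3 (against 50.2% of all loci). On each of arrays 1 and 2, 2 were above 0 (18.2%, against 48% and 51% of all loci). The 5 root markers had medians of -0.15, -0.57 and 0.27, and none had the same sign on all arrays. Above 0 were 2 of them on array 1 (40%), 1 on array 2 (20%) and 5 on array 3 (100%), against 48%, 51% and 50.2% of all loci. The widest spread over the arrays was in PYK10, with 1.11, -1.53 and 0.32. Both marker medians lay below 0 on arrays 1 and 2 and above 0 on array 3, where the 60S medians were 0.06, 0.39 and 0.20. The part of tissue make-up in the ratios was not tested.

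**Figure D5:**
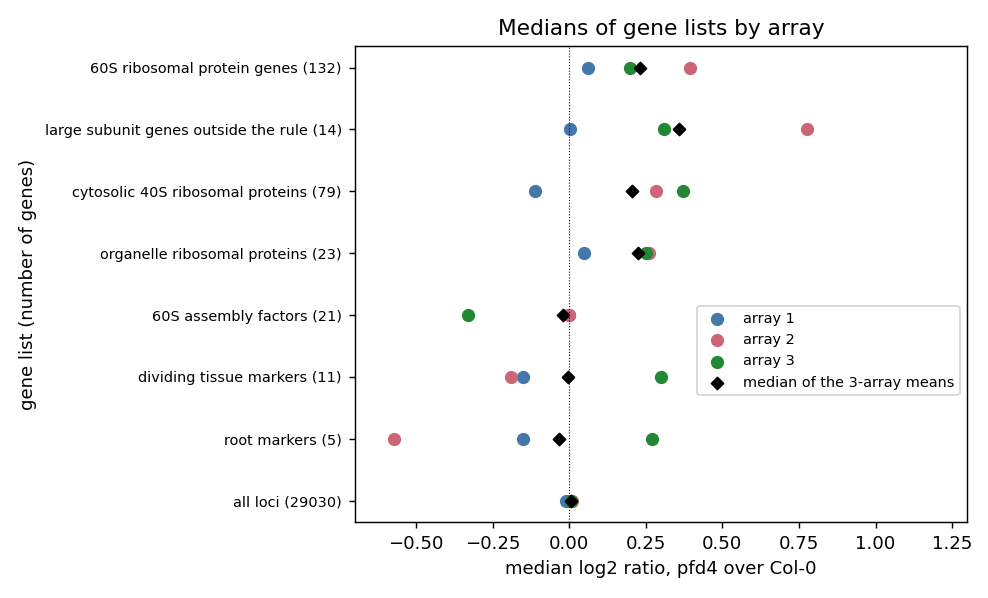
Median log2 ratio of pfd4 over Col-0 (horizontal axis) of each gene list (vertical axis, with its number of genes) on arrays 1, 2 and 3 (coloured dots), and the median of the means over the 3 arrays (black diamonds). The 60S genes and the other ribosomal protein lists lie to the right of 0 on arrays 2 and 3, and the 60S assembly factors do not.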

How the data were processed

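RNA of pfd4 and Col-0 plants was compared on 3 arrays. Per spot and array the authors deposited a log2 ratio, normalized with limma per the submitters' processing notes, without a version or settings. The log base was taken as 2, and the numerator was read from PFD4. Both deposited tables held the same value at all 45220 spots. Of these, 38613 carried a locus, and where a locus had several spots their mean was taken; 28595 of 29030 loci were found in a RefSeq gene table (TAIR10.1). A further 11 spots matched the name rule but carried no locus of chromosomes 1 to 5. The array's genome build and probe sequences were not used here, so no coordinates or sequences are given.

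Means were tested against 0 with limma 3.58.1 in R 4.3.3 (lmFit and eBayes, two-sided, Benjamini-Hochberg over all loci, threshold 0.05; residual degrees of freedom 2, prior 2.68). The procedure was tested on simulated data. The replicate number was taken from the title, since another label gives number 1 to all 3 arrays. The members and lists were chosen with earlier results of these data known, and the list of genes outside the rule after the annotation was seen. Assembly factors entered only where the annotation carried their symbol (21 of 32). The rule for named genes took the 8 highest and the 8 lowest means among members of one sign on all arrays, members with an unadjusted p under 0.05, families with a gap over 1, stalk genes and genes known by a mutant's name, 34 in all. Only 3 members were below 0 on all arrays.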

Additional observations from a re-analysis of the deposited data

How the results depend on the processing

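The median of the members' means stayed above 0 in each alternative tried, from 0.08 with the sign of array 3 turned to 0.35 without array 1, with 0.15 as the lowest value when 1 array was left out (array 2); no member passed after adjustment in any. As deposited, PFD4 had -3.08, -2.71 and -2.17 on arrays 1, 2 and 3. Turning array 3 therefore departs from the direction read from PFD4 and is given only to show how much the counts rest on that sign. With the sign of array 3 turned, 27 members were above and 13 below 0 on all arrays. In that setting 13 were higher and 5 lower at an unadjusted p under 0.05 (limma). Higher members at that p were 4 with a dye term, 11 with array weights, 4 with the first spot of each locus, and 2 without moderation, where 2 were lower. Leaving out 1 array gave 0 to 24 higher and 1 to 3 lower members, 45 to 74 above 0 and 6 to 17 below 0 on all arrays. For these alternatives the same counts were not taken over all loci. A choice made after seeing the data left out pseudogenes and unnumbered loci. Of the 122 members left, 38 were above 0 on all arrays (31.1%, against 12.3% of all loci) and 3 below (2.46%, against 12.1%). Of 34 named members, 25 kept the sign of their mean in every alternative, and 19 of 401 values changed sign. With array 3 turned, these were RPL90A/C (-0.33), RPL10aB (-0.13), RPP2A (-0.013), RPP0A (-0.50), RPP2D (-0.18), RPP2E (-0.14) and RPP3B (-0.10). Without array 3, they were RPL90A/C (-0.20), RPL10aB (-0.07), RPP0A (-0.305), RPP2D (-0.053) and RPP2E (-0.055); without array 1 these 5 had 0.26, 0.155, 0.495, 0.23 and 0.14. With array weights, they were RPL90A/C (-0.037), RPL10aB (-0.016) and RPP0A (-0.092). With the first spot, they were RPL90A/C (-0.04), RPL10aB (-0.03), RPP2B (-0.027) and RPP1C (-0.07). The cause of these changes was not tested. Both genotypes share each array, so the ratio already is the pair, and the test of the ratio against 0 was the paired analysis. Spot brightness is unknown, so it could not limit the loci tested.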
